A study of Mus musculus with 2 samples.

Results

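Rod-gated barcodes are the barcodes of an optic cup single-cell dataset that met a marker rule for rod photoreceptors: at least 4 of 8 rod genes (Cnga1, Rp1, Pde6a, Pde6b, Nrl, Nr2e3, Slc24a1 and Impg1) with a UMI, and at most 1 of 15 genes of other cell types (Trpm1, Prkca, Grik1, Slc6a9, Gad1, Arr3, Gnat2, Rlbp1, Aqp4, Rpe65, C1qa, Cldn5, Dcn, Dct and Krt5). A UMI is a molecular tag that counts 1 captured RNA molecule. The rule was applied to barcodes with at least 500 UMIs, at least 300 genes and at most 25% of UMIs from mitochondrial genes, and it held for 2890 of 62485 such barcodes. The rule used the detection of its own genes, so their levels are given only as a description.

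All mice carried the Abca4KO genotype, a model of the retinal disease caused by loss of the outer segment flippase ABCA4. By the series' design, subretinal injections at 2 months of age delivered the miR-181a/b sponge to an eye and a control vector to the fellow eye, and eyes were collected 4 months later, while the labels of both samples say 4 months old. The dataset holds 2 libraries, labelled AAV2.8-GFP (a vector for green fluorescent protein, here GFP) and AAV2.8-Sponge.mir181 (here sponge), 1 for each treatment. Eyes were dissociated with papain. The sources used here give neither the number of mice behind each library nor the promoter of the vectors. With 1 library per treatment there was no replicate and no test: every interval covers counting error only, within these libraries, and no p-value is given.

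Rods are the photoreceptors of dim light. In their outer segments, light leads to activation of transducin, transducin activates a cGMP phosphodiesterase, and the fall in cGMP closes a cation channel. Arrestin, a receptor kinase and calcium-sensing proteins then end the response, and the transcription factors CRX, NRL and NR2E3 maintain the identity of the cell. Rods consume much energy through glycolysis and oxidative phosphorylation. MicroRNAs of the miR-181 family bind messenger RNAs through their seed, bases 2 to 8 from the 5′ end, and a sponge is a transcript that carries binding sites to occupy the microRNA.

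The 2 microRNAs named by the sponge are shown because the target sites described later pair with their shared seed, in capitals. The sequences are those of RefSeq on GRCm38.p6, and each microRNA has a copy on chromosomes 1 and 2, both on the plus strand.
mmu-miR-181a-5p: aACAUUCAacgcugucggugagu
mmu-miR-181b-5p: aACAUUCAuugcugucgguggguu
The mature miR-181a-5p lies at chr1:137966468-137966490 and chr2:38852741-38852763, and miR-181b-5p at chr1:137966650-137966673 and chr2:38853845-38853868.

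The labels of the vectors did not match the reads of the vector's reporter. The eGFP feature had 12 UMIs over all kept barcodes labelled GFP and 5484 over those labelled sponge. The sources used here do not say which vectors carry eGFP, so each library is called by its label, and the direction of every comparison rests on those labels. The libraries shared 290 barcode sequences, of which 1 was rod-gated in both. The library labelled GFP held 123040365 UMIs in 39461 barcodes and the library labelled sponge 132067896 UMIs in 23267 barcodes. Abca4, the gene deleted in all mice, is read here at its 3′ end, so its counts do not check the deletion unless that end was removed, which the labels do not say.

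The label of rod photoreceptor could not be established for these barcodes from their rod RNA counts, which overlapped with those of other gates. Rod messenger RNA was found in barcodes of every gate in both libraries. At least 4 of the 8 rod markers were detected in 71.5% of kept barcodes labelled GFP and 70.3% labelled sponge, so the limit on other-cell markers, not the rod markers, removed most barcodes. Rod content was measured with 23 rod genes outside the rule, among them Sag, Gnat1 and Prph2, a list chosen after the data were seen. Rod-gated barcodes held a median of 31 UMIs in these genes under the GFP label and 36 under the sponge label. Barcodes of 1000 to 2500 UMIs that failed the rule, here called the other barcodes of the same depth, held medians of 26 and 32. Barcodes gated for microglia, immune cells with no known rod gene program, held medians of 24 and 23.

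Rod RNA per barcode therefore overlapped widely between gates, as the plot of rod UMIs by gate shows. Cone-gated barcodes had medians of 32 and 56, rod bipolar-gated barcodes 27 and 33, Müller glia-gated barcodes 25 and 28, and pigment epithelium-gated barcodes 27 and 28, in the libraries labelled GFP and sponge. As a share of a barcode's UMIs, the 23 genes took a median of 2.00% in rod-gated barcodes labelled GFP against 1.56% in the other barcodes of the same depth, and 2.41% against 2.15% in the library labelled sponge. The gates for other cell types above had deeper barcodes at the median and lower median shares in both libraries. Labelled GFP and sponge, the shares were 1.05% and 0.955% for microglia, 1.17% and 0.940% for rod bipolar cells and 1.11% and 1.16% for Müller glia. They were 1.14% and 1.52% for pigment epithelium and 1.83% and 2.23% for cones. Because rod RNA counts overlapped between gates, the barcodes are called rod-gated throughout, and not rods.

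**Figure D1:**
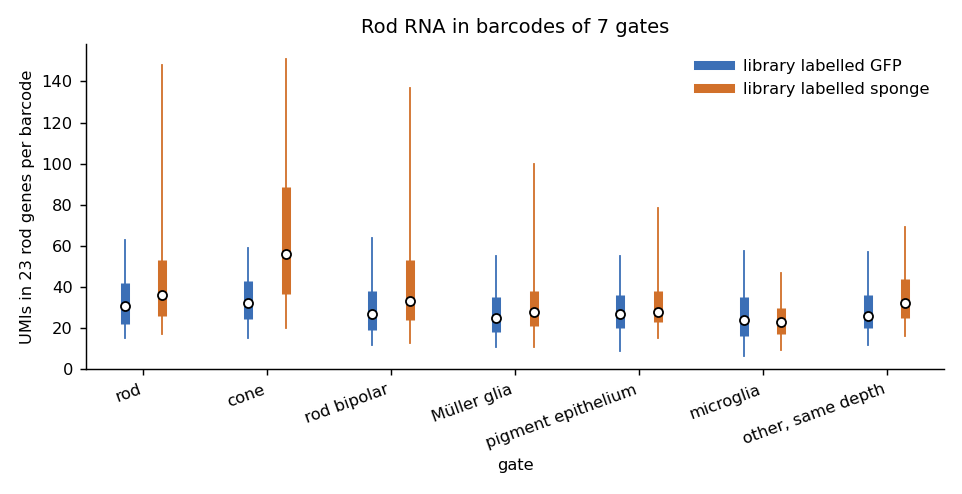
UMIs in 23 rod genes outside the rule per barcode (y axis) for 7 gates (x axis) in the 2 libraries. Points are medians, thick bars span the 25th to 75th percentiles and thin lines the 5th to 95th; the rod-gated medians of 31 and 36 lie inside the range of every other gate.

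The libraries differed in the number of barcodes rich in rod RNA. At least 5% of UMIs fell in the 23 rod genes in 2 of 1671 rod-gated barcodes labelled GFP (0.120%, 95% exact binomial interval 0.0145 to 0.432) and in 106 of 1219 labelled sponge (8.70%, 7.17 to 10.4). At a limit of 4% there were 53 and 174 such barcodes, and at 6% there were 0 and 53, where a count of 0 among 1671 leaves room for a share of 0.180%. The rod-gated barcodes with at least 100 rod gene UMIs numbered 4 (0.239%) and 123 (10.1%). The same gap was present outside the rule. Of all kept barcodes, 22 labelled GFP and 643 labelled sponge held at least 5% rod RNA, and 19 and 532 of those had 2 or more markers of other cell types, so most of the rod-rich barcodes failed the rule.

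**Figure D2:**
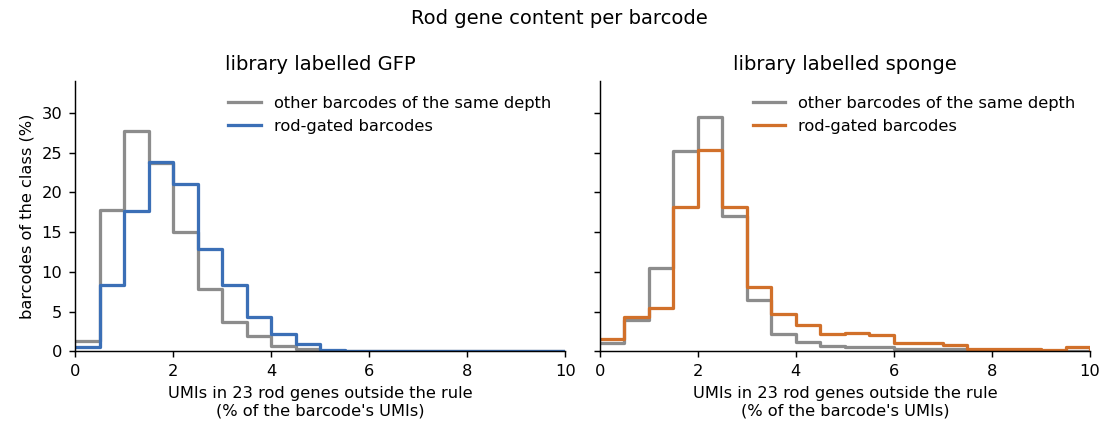
Share of each barcode's UMIs in 23 rod genes outside the rule (x axis, %) against the percent of barcodes of the class (y axis), for rod-gated barcodes and for other barcodes of the same depth, in each library. The rod-gated and other distributions overlap in both libraries, and a tail above 5% is seen in the library labelled sponge, with 106 rod-gated barcodes.

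The rule selected 4.25% of kept barcodes labelled GFP (1671 of 39285, 95% interval 4.06 to 4.46) and 5.25% of those labelled sponge (1219 of 23200, 4.97 to 5.55), a log2 ratio of 0.30. The share depends on how the rule was applied. With the mitochondrial limit at 10% the shares were 1.33% and 3.43%, a log2 ratio of 1.37. Barcodes just outside the rule were more numerous than those inside: 3459 and 2421 had at least 4 rod markers and 2 markers of other cells, and 474 and 354 had 3 rod markers with at most 1 other. Just inside, 527 and 337 barcodes had exactly 4 rod markers, and only 52 and 119 had all 8. Medians of rod gene UMIs were 21 and 23 with 3 rod markers, 24 and 27 with 4, and 51.5 and 116 with 8.

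Since a limit on other-cell markers favours shallow barcodes, depth was compared before any gene. Rod-gated barcodes had a median of 1559 UMIs with the GFP label and 1528 with the sponge label, against 2415 and 2980.5 over all kept barcodes. Mitochondrial genes took a median of 14.3% and 11.1% of UMIs. Malat1, a nuclear long non-coding RNA, took 1.69% and 1.62%. Each barcode was then thinned at random to 1000 UMIs, which left out 68 and 153 shallower barcodes and kept 1603 and 1066. Levels below are CPM, a gene's share of these thinned UMIs on the usual CPM scale, and a log2 ratio is sponge over GFP, as labelled.

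Over the 7510 genes with at least 50 thinned counts, the median log2 ratio was 0.10, and 60.2% of genes were above 0. At least 2-fold differences were seen for 70 genes higher (0.932%) and 163 genes lower (2.17%) in the library labelled sponge. Scaling by the median of ratios, which sets the typical gene to no change, gave 40 higher and 247 lower. Under that scaling the list medians given below moved down by about 0.10 and kept their signs, except heat shock (-0.06), injury (-0.09) and cell death (-0.01). The counting interval lay above 0 for 14.5% of genes and below 0 for 10.3%. Counts of list members given below are to be read beside these shares and the 60.2% of genes above 0. In the other barcodes of the same depth 0.533% of genes were at least 2-fold higher and 4.49% at least 2-fold lower, and in rod bipolar-gated barcodes 0.479% and 1.49%.

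Genes of the rod transduction cascade were mostly higher in the library labelled sponge, by less than 2-fold. Of 10 members, all measured, 9 were above 0, beside 60.2% of all genes. The members had a median log2 ratio of 0.29 against 0.10 for all genes, and none reached 2-fold. Pde6a, Pde6b, Cnga1 and Slc24a1 among them are also genes of the rule; of the 6 other members 5 were above 0, with a median of 0.40. Gnat1, the transducin alpha subunit (chr9:107674474-107679712, minus strand, mm10), was at 1296 CPM labelled GFP (95% exact Poisson interval 1241 to 1353) and at 1669 CPM labelled sponge (1592 to 1748). Pde6g, the inhibitory subunit of the rod phosphodiesterase, was at 1252 and 1836 CPM, a log2 ratio of 0.55 (0.46 to 0.64). Gngt1, the transducin gamma subunit, went the other way, at 3084 and 2672 CPM, a log2 ratio of -0.21 (-0.27 to -0.14).

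The genes that end the light response showed the same pattern. Of 12 measured members, 11 were above 0, with a median of 0.43, beside 60.2% of all genes above 0. Sag, which encodes rod arrestin (chr1:87803680-87845158, plus strand), was at 3586 CPM (3494 to 3680) labelled GFP and 5144 CPM (5008 to 5282) labelled sponge. Grk1, a photoreceptor kinase of the shut-off, was at 167 and 285 CPM, a log2 ratio of 0.78 (0.53 to 1.02). The guanylate cyclase activator Guca1b was at 324 and 493 CPM, and recoverin, Rcvrn, at 868 and 1172 CPM.

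All 20 measured genes of the outer segment and cilium were above 0, with a median of 0.37, and 16 had an interval above 0. Of all genes, 60.2% were above 0 and 14.5% had an interval above 0. Prph2, which shapes the disc rim (chr17:46910459-46924933, plus strand), was at 948 CPM (901 to 996) and 1476 CPM (1404 to 1550), a log2 ratio of 0.64 (0.54 to 0.74). Its partner Rom1 was at 905 and 1366 CPM. Fscn2, a photoreceptor actin bundling protein, was at 53.7 and 104 CPM, a log2 ratio of 0.95 (0.54 to 1.38). Rp1 and Impg1 are genes of the rule and were at 0.23 and 0.22; the 18 members outside the rule had a median of 0.40. Rpgr, Kif3a, Bbs4 and Lca5 had intervals that included 0.

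For retinoid handling, 6 of 8 listed genes were measured and 5 were above 0, with a median of 0.43. Rdh12, a retinol dehydrogenase of the inner segment, was at 170 and 279 CPM, a log2 ratio of 0.72 (0.47 to 0.96), and was the only member whose interval lay above 0. Abca4 itself (chr3:122044443-122180123) was at 75.5 CPM (62.6 to 90.2) and 98.5 CPM (80.6 to 119), with an interval of the log2 ratio of -0.01 to 0.77. Rbp3, the retinoid carrier of the interphotoreceptor matrix, was at 420 and 416 CPM.

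Among transcription factors, 10 of 13 measured genes were above 0, with a median of 0.44, beside 60.2% and 0.10 for all genes. Crx was at 221 and 342 CPM, a log2 ratio of 0.63 (0.42 to 0.85), and Esrrb, an orphan nuclear receptor of rods, at 128 and 207 CPM. Nrl and Nr2e3, both genes of the rule, were at 0.50 and 0.20. Without these 2 genes, 8 of 11 were above 0, with a median of 0.44. Their summed levels were 2215 and 2392 CPM, a log2 ratio of 0.11, near the 0.10 of the median gene. Rorb was lower, at 504 and 395 CPM, and so was Neurod1, at 440 and 381 CPM.

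Some of these differences were smaller or turned in barcodes with little rod RNA. Among the 1406 rod-gated barcodes labelled GFP and 889 labelled sponge with under 3% of UMIs in the 23 rod genes, an alternative added after seeing the data and cut on some of the same genes, the summed transduction cascade was at 12533 and 11959 CPM of unthinned UMIs, a log2 ratio of -0.07 (-0.09 to -0.04). At 1000 UMIs the median log2 ratio in these barcodes was 0.10 for the cascade, 0.30 for shut-off genes and 0.33 for the outer segment. In unthinned UMIs there, Gnat1 was at 1089 and 1068 CPM and Rcvrn at 690 and 706 CPM, and neither differed beyond counting error. Pde6g was at 1026 and 1101 CPM of unthinned UMIs. Sag, at 3118 and 3968 CPM, and Prph2, at 813 and 1121 CPM, kept their direction. The cut limits the summed level of its own genes, Gnat1, Sag and Prph2 among them, so a smaller difference in these barcodes is partly built in.

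Other barcodes of the same depth showed differences of similar size. In them the median log2 ratio was 0.35 for the transduction cascade, 0.54 for shut-off genes, 0.45 for the outer segment, 0.42 for retinoid handling, 0.44 for transcription factors and 0.09 for the ribbon synapse, against 0.29, 0.43, 0.37, 0.43, 0.44 and 0.19 in rod-gated barcodes. Sag differed by 0.59 there and Prph2 by 0.78. Summed over the cascade the log2 ratio was 0.25 in rod-gated barcodes, 0.28 in the other barcodes of the same depth, 0.05 in rod bipolar-gated barcodes and -0.19 in cone-gated barcodes; without the rule's 4 genes it was 0.25, 0.27, 0.04 and -0.16. No test of these differences between gates was possible with 1 library per treatment.

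**Figure D3:**
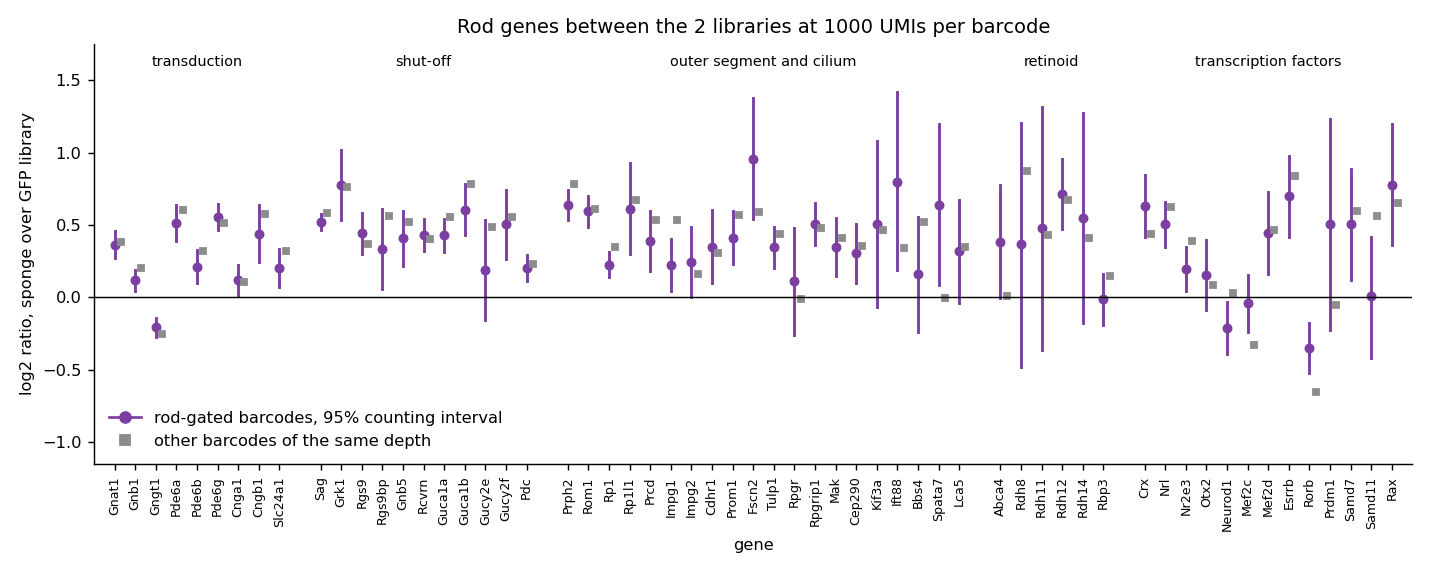
Log2 ratio of measured rod genes between the libraries (y axis, sponge over GFP, 1000 UMIs per barcode) for genes grouped by role (x axis). Circles with lines are rod-gated barcodes with 95% counting intervals and squares are other barcodes of the same depth; most genes lie above 0 in both, and Gngt1 lies below 0 in both.

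The mitochondrial share moved with the library and with these values. Of rod-gated barcodes, 42.8% labelled GFP and 10.3% labelled sponge had 15 to 25% mitochondrial UMIs, while 11.9% and 35.5% had 5 to 10%. Within 5 to 10% the summed transduction cascade differed by 0.70 (0.64 to 0.77), within 10 to 15% by 0.25 and within 15 to 25% by -0.18. Shut-off genes went from 0.83 through 0.32 to -0.04 and the outer segment list from 0.75 through 0.27 to 0.02. The direction for rod genes therefore held in the lower bins and was lost or reversed in the highest. These bins held 195, 717 and 687 thinned barcodes labelled GFP and 408, 512 and 113 labelled sponge; under 5% there were 4 and 33, too few to compare. The part of the mitochondrial share in the pooled result was not tested beyond these bins.

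**Figure D4:**
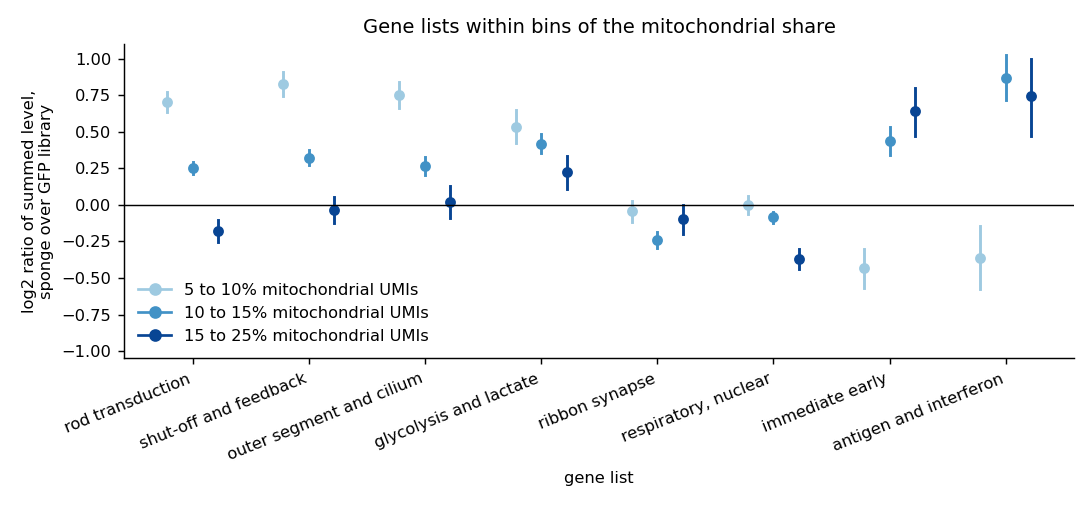
Log2 ratio of the summed level of 8 gene lists (y axis, sponge over GFP) in rod-gated barcodes within 3 bins of the mitochondrial share, with 95% counting intervals. Rod lists are highest in the 5 to 10% bin, at 0.70 for transduction, while immediate early and antigen lists are below 0 in that bin and above 0 in the other bins.

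Genes of energy metabolism split by pathway. For glycolysis and lactate, 19 of 21 measured genes were above 0, with a median of 0.30. Pkm, the pyruvate kinase of photoreceptors, was at 519 and 706 CPM, and Slc16a1, a lactate transporter, at 55.5 and 98.5 CPM. Hk2, the hexokinase of photoreceptors, was lower, at 285 and 195 CPM, a log2 ratio of -0.55 (-0.79 to -0.31). The direction of the list held in each mitochondrial bin, at 0.54, 0.42 and 0.22, and its median was 0.35 in the other barcodes of the same depth.

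Nuclear genes of the respiratory chain had a median of -0.17, with 33 of 76 above 0, and summed to 20045 and 16870 CPM. In the other barcodes of the same depth their median was 0.02, with 39 of 76 above 0, and their summed log2 ratio was -0.14. In rod-gated barcodes within 5 to 10% mitochondrial UMIs their sums were 15359 and 15348 CPM, with an interval of the log2 ratio of -0.06 to 0.06. Within 10 to 15% the log2 ratio was -0.08 (-0.12 to -0.05) and within 15 to 25% it was -0.37 (-0.44 to -0.30), beside -0.25 over all rod-gated barcodes. All 13 mitochondrially encoded genes were lower in the library labelled sponge, with a median of -0.48. The differences ranged from -0.21 for mt-Atp6 to -1.50 for mt-Nd4l, which was at 1749 and 617 CPM. Within the bins, which fix the total of these genes, their sum differed by -0.11, -0.04 and -0.08.

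At the ribbon synapse, where photoreceptors release glutamate, 17 of 22 genes were above 0, with a median of 0.19, but the summed levels were nearly equal at 9874 and 9871 CPM. Within the mitochondrial bins the summed log2 ratio was -0.04 at 5 to 10%, -0.24 (-0.29 to -0.19) at 10 to 15% and -0.10 at 15 to 25%. The intervals of the lowest and highest bins included 0. Slc17a7, the vesicular glutamate transporter of photoreceptors, was at 283 and 444 CPM, a log2 ratio of 0.65 (0.46 to 0.84). Cacna1f, the calcium channel of the rod terminal, was at 72.4 and 114 CPM. Nrxn3, a neurexin of many retinal neurons, was lower, at 2017 and 1074 CPM, a log2 ratio of -0.91 (-1.01 to -0.81), and differed by -1.65 in the other barcodes of the same depth.

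Genes of stress and injury gave mixed values. Immediate early genes, induced within minutes in stressed or stimulated cells, had 12 of 18 above 0 and a median of 0.23. That count is near the 60.2% of all genes above 0. In the other barcodes of the same depth 14 of 18 were above 0, with a median of 0.26. Fosb was at 124 and 213 CPM and Ier2 at 82.3 and 153 CPM. The direction of the immediate early list turned with the mitochondrial share, since its summed log2 ratio was -0.43 within 5 to 10%, 0.44 within 10 to 15% and 0.64 within 15 to 25%. Markers of Müller glia turned with it, at -0.49, 0.44 and 0.36 in the same bins, and those of microglia and macrophages were at -0.82, 0.27 and 0.42, the last 2 with intervals that included 0; their part in the result was not tested. Heat shock genes had a median of 0.04, with Hspa1b at 306 and 121 CPM and its near-identical neighbour Hspa1a at 149 and 149 CPM, a pair between which reads can be split by the counting.

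Lists of cell maintenance lay near the median of all genes. Antioxidant genes had a median of 0.16 with 10 of 18 above 0, lysosome and autophagy genes 0.16 with 15 of 21, mitophagy and mitochondrial biogenesis genes 0.11 with 14 of 20, genes of the unfolded protein response 0.15 with 8 of 13, and cell death genes 0.09 with 6 of 7 measured of 25. Optn, an autophagy receptor, was at 79.2 and 129 CPM, a log2 ratio of 0.71 (0.35 to 1.07), and Prdx6, a peroxiredoxin, at 188 and 250 CPM. Nuclear and long non-coding RNAs had a median of -0.40 with 1 of 7 above 0. Neat1, the scaffold of nuclear paraspeckles, was at 78.6 and 29.1 CPM, a log2 ratio of -1.42 (-2.05 to -0.86).

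The photoreceptor injury list had a median of 0.02 over 11 measured genes but a lower sum, at 2016 and 1295 CPM, carried by few genes. The metallothionein Mt1 was at 1041 CPM (992 to 1092) and 541 CPM (498 to 587). Serpina3n, a protease inhibitor of reactive glia, was at 39.9 and 13.1 CPM. Lcn2, which encodes lipocalin 2, an iron-binding protein of acute inflammation (chr2:32384633-32388252, minus strand), was at 215 CPM (344 counts, 193 to 239 CPM) and, with 16 counts, at 8.58 to 24.4 CPM, a log2 ratio of -3.80 (-4.66 to -3.12). Lcn2 was also lower in rod bipolar-gated barcodes, by -5.42, and in the other barcodes of the same depth, by -3.91.

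Of 16 measured genes of antigen presentation and interferon, 14 were above 0, with a median of 0.49, and 3 of them passed 2-fold, beside 0.932% of all genes. H2-D1, a class I histocompatibility gene, was at 109 and 220 CPM, and the immunoproteasome subunits Psmb8 and Psmb9 were at 22.5 and 46.9 CPM and at 12.5 and 40.3 CPM. The list was higher in the other barcodes of the same depth too, with a median of 0.80, and within 5 to 10% mitochondrial UMIs its summed log2 ratio was -0.36 (-0.57 to -0.14). Markers of microglia and macrophages summed to 298 and 337 CPM in the rod-gated barcodes, and none of these 8 markers was at 0 in either library; their part in the result was not tested.

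Markers of other cell types were present in rod-gated barcodes of both libraries. The Müller glia gate was also passed by 177 (10.6%) and 92 (7.55%) of them, and the rod bipolar gate by 76 and 48. Of the rule's own exclusions, Prkca, a protein kinase C of rod bipolar cells, had a UMI in 19.1% and 29.5% of rod-gated barcodes against 57.4% and 55.5% of the other barcodes of the same depth. Rlbp1, of Müller glia and pigment epithelium, had a UMI in 14.1% and 16.4%. The 5 epithelial markers summed to 129 and 276 CPM and the 6 fibroblast markers to 176 and 37.5 CPM, with Dpt at 0 labelled sponge. Dcn, a fibroblast marker that the rule used, was at 110 and 18.8 CPM, so the fibroblast sums rest largely on a gene of the rule. Müller glia markers summed to 4431 and 4782 CPM, against 5379 and 7212 CPM in the other barcodes of the same depth, and bipolar markers to 2378 and 2020 CPM. Haemoglobin RNA came from few barcodes: 18 labelled GFP and 5 labelled sponge had at least 20 haemoglobin UMIs and held 95.2% and 97.2% of the haemoglobin UMIs of all rod-gated barcodes. In both libraries, haemoglobin genes were among the leading genes of rod-gated barcodes against the others of the same depth. Hbb-bs was at 1578 CPM against 896 CPM with the GFP label and at 2007 CPM against 460 CPM with the sponge label.

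Genes that passed the filters given under processing were ranked on the bound of the counting interval nearest 0, not on the ratio. The 12 highest in this ranking were S100a9, Igkc, Krt12, Ly6a, Sfn, Aqp5, Aldh3a1, Lypd2, Psmb9, Mok, H2-D1 and Fam53b. Several of them are known from corneal epithelium or immune cells and not from photoreceptors. Krt12, the corneal keratin, was at 46.2 CPM (36.2 to 57.9) and 154 CPM (131 to 179), and Aldh3a1, a corneal crystallin enzyme, at 30.6 and 94.7 CPM. Both were also higher in the other barcodes of the same depth, by 2.21 and 2.07. Igkc, the immunoglobulin kappa constant region, had a UMI in 8 barcodes labelled GFP and 56 labelled sponge, at 4.99 and 58.2 CPM. S100a9, a calcium-binding protein of neutrophils, had no count labelled GFP and 69 counts labelled sponge, at least 34.6-fold higher against a floor of 3 counts over the library, but 65 of the 69 came from 1 barcode.

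These values depended on which barcodes were taken. With the mitochondrial limit at 10%, the log2 ratio of Krt12 went from 1.73 to 0.29, of Aldh3a1 from 1.62 to 0.33, of Lypd2 from 1.62 to 0.19 and of H2-D1 from 1.01 to 0.34. With the rule applied after thinning, that of Igkc went from 3.47 to 0.33. Mok, a kinase gene, was at 28.1 and 68.5 CPM, and its log2 ratio of 1.28 became 0.68 with another random draw of the thinning.

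The 12 lowest genes in the same ranking were Lcn2, Bach2, Mctp1, Rpl39, Gm10076, Kirrel3, Samd4, Rps27, Lsamp, Hspa1b, Nrg3 and Gabra5. Mctp1, a calcium-binding membrane protein, was at 105 CPM (90.2 to 123) and 27.2 CPM (18.2 to 39.1). The ribosomal protein genes Rpl39 (chrX:37082520-37085402, minus strand) and Rps27 were at 938 and 358 CPM and at 821 and 342 CPM; both have near-identical copies in the genome, so their counts are uncertain. Lsamp, Nrg3, Kirrel3 and Gabra5 are genes of synaptic adhesion, signalling or inhibition in neurons, and Lsamp was at 800 and 339 CPM. All 12 were also lower in the other barcodes of the same depth, from -0.96 for Rps27 to -3.91 for Lcn2.

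The reported targets of miR-181a/b were examined because a sponge is meant to release them. The 9 genes in this list, named from earlier literature and not from these data, had a median log2 ratio of 0.11 against 0.10 for all genes, with 6 above 0 and none at 2-fold. Summed, they were at 850 CPM (805 to 897) and 921 CPM (864 to 981). Cox11, an assembly factor of cytochrome oxidase, was the only member whose interval lay above 0, at 16.2 and 29.1 CPM and 0.84 (0.04 to 1.65). Atg5, of autophagosome formation, was at 31.2 and 45.0 CPM, and the anti-apoptotic gene Bcl2 at 46.2 and 61.0 CPM, both with intervals that included 0. Nrf1, a regulator of mitochondrial biogenesis, was at 68.6 and 74.1 CPM.

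In the longest annotated 3′ untranslated region (UTR) of these 9 genes, a match to seed bases 2 to 8, TGAATGT, was found in Atg5 and Bcl2. Only the transcribed strand was searched, and the match is in capitals.
Atg5, chr10:44364187-44364216, plus strand: ctagcttgctgtccacatTGAATGTcaacc
Atg5, chr10:44364259-44364288, plus strand: tagattcaataataaagaTGAATGTtttct
Bcl2, chr1:106539826-106539855, minus strand: gattataataatcaggacTGAATGTagata
A match of these letters was present in the longest UTR of 16.4% of genes with an annotated UTR, 3450 genes. Of these, 1574 were measured in rod-gated barcodes, with a median log2 ratio of 0.06 and 56.0% above 0. The 5213 measured genes with neither this match nor the shorter GAATGT followed by A, GAATGTA, had a median of 0.12 and 62.6% above 0. The other barcodes of the same depth gave 0.03 and 0.13. In both sets the median of genes with a match lay below that of genes without; the part of UTR length in this was not tested.

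The 106 rod-rich barcodes of the library labelled sponge, those with at least 5% of UMIs in the 23 rod genes, were compared with its 889 rod-gated barcodes under 3%. The cut was made on rod genes, so the levels of the rod lists describe it: the transduction cascade was at 42906 CPM of unthinned UMIs against 11959 CPM, and Sag at 10113 CPM against 3968 CPM. Genes that the cut did not use also differed. The glycolysis list was at 9331 CPM (8946 to 9729) against 6094 CPM (5975 to 6214), with Ldha, lactate dehydrogenase A, at 643 against 304 CPM. Nuclear genes of the respiratory chain were at 22599 against 14709 CPM, while mitochondrially encoded ones were at 85262 against 103634 CPM. Crx was at 427 CPM (348 to 519) against 286 CPM (261 to 313).

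Several lists of other cells or of stress had lower sums in the rod-rich barcodes, though not each member was lower. Müller glia markers were at 3158 against 4585 CPM, bipolar markers at 1277 against 2095 CPM, immediate early genes at 2338 against 3474 CPM and the injury list at 943 against 1381 CPM. Erythrocyte markers were at 114 against 8064 CPM, but the 5 barcodes with at least 20 haemoglobin UMIs held 12992 of the 13369 haemoglobin UMIs of all rod-gated barcodes in this library. A part of any such list must be lower where rod genes take more of the total. The ribbon synapse list was at 9348 CPM (8962 to 9746) against 10656 CPM (10499 to 10815), a lower sum made of opposite differences. Nrxn3 was at 347 against 1648 CPM, while Cplx4, a complexin of photoreceptor terminals, was at 769 against 325 CPM, Slc17a7 at 571 against 350 CPM and the syntaxin Stx3 at 562 against 245 CPM. The 537 rod-rich barcodes that failed the rule had like values, with the cascade at 39363 CPM and glycolysis at 8585 CPM. Both sets come from 1 library, so their barcodes are not replicates, and the library labelled GFP had too few rod-rich barcodes for the same comparison.

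**Figure D5:**
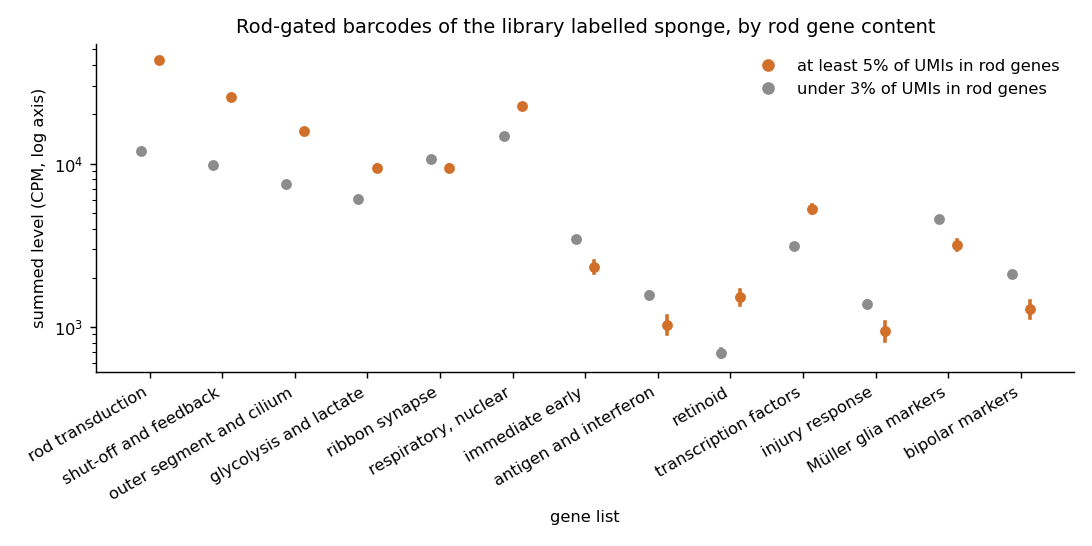
Summed level of 13 gene lists (y axis, CPM, log axis) in rod-gated barcodes of the library labelled sponge with at least 5% or under 3% of UMIs in 23 rod genes, with 95% exact Poisson intervals. The glycolysis list is at 9331 against 6094 CPM, and the Müller glia markers are at 3158 against 4585 CPM.

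Reads of eGFP were found in few rod-gated barcodes. None of 1671 labelled GFP had an eGFP UMI, where a count of 0 leaves room for a share of 0.180%, and 25 of 1219 labelled sponge had at least 1 (2.05%, 95% exact binomial interval 1.33 to 3.01). After thinning, 12 of 1066 did (1.13%). Pigment epithelium-gated barcodes of the same library had a UMI in 28 of 195 cases (14.4%), and in 18 of 192 (9.38%, 5.65 to 14.4) after thinning. The other barcodes of the same depth had one in 2.28%, or 1.63% (1.36 to 1.93) after thinning. After thinning, the exact binomial intervals of the rod-gated barcodes and the other barcodes of the same depth overlapped. Median depth was 1528 UMIs in the rod-gated, 2019 in the pigment epithelium-gated and 1560 in the other barcodes. The 25 barcodes had the transduction cascade at 16652 CPM (15516 to 17849) against 17235 CPM (17064 to 17408) in the 1194 without eGFP, and Sag at 5161 CPM (4537 to 5846) against 5125 CPM (5032 to 5220). Their outer segment list had a lower sum, at 7313 CPM (6566 to 8120) against 9170 CPM (9045 to 9296). Their immediate early genes were at 2277 CPM (1870 to 2747) against 3278 CPM (3203 to 3354). These intervals cover counting error only and take no account of the spread in rod RNA content between barcodes. A few barcodes among the 25 could move such sums, and whether the lists differ with eGFP was not tested.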

How the data were processed

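The deposited files hold the authors' UMI counts per gene and barcode, made with Cell Ranger 7.0.0 on mm10 per the submitters' processing notes, from 10x 3′ libraries per the labels' protocols. Barcodes were filtered and gated as described, by 8 rod markers and 15 markers of other cells. No doublet caller was run. The limit on other-cell markers can remove mixed barcodes, but whether the removed barcodes were mixed was not tested. Results were recomputed without the deepest 10% of rod-gated barcodes. Each barcode was thinned without replacement to 1000 UMIs with a fixed seed, counts were summed per library and scaled to CPM, and log2 ratios were taken with 0.5 added to both counts. Intervals are 95% exact Poisson (levels) or exact binomial (shares and ratios); a share of 0 was bounded by 3 counts. The ratios and intervals were tested on simulated data with independent counts for each gene. That simulation does not cover counts that cluster within a few barcodes, as those of S100a9 and haemoglobin did. Other named genes clustered to a lesser degree. Labelled sponge, 1 barcode held 14 of 62 counts of Nrg3, and 1 held 17 of 90 counts of Ly6a. The intervals of such genes are too narrow. Because there is 1 library per treatment, no test was run.

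Named genes are the 12 highest and 12 lowest by the interval bound nearest 0, among measured genes outside the rule that are not mitochondrially encoded and whose rod-gated level is at least 0.1 of that in the highest gated class, plus members that show a list. The rule, the gene lists and the comparisons were chosen with earlier results of these data known. Aldoa and Ddit3, whose symbols name more than 1 feature, and Atp5pb, absent from the feature list, have no value. Gene positions and UTRs are from GENCODE vM21, which is on the same assembly as mm10. The computations used Python 3.11.15, numpy 2.4.6, scipy 1.17.1 and pandas 2.3.3. The alternatives tried were other marker numbers, mitochondrial and depth limits, thinning depths, scaling, count filters and, added after seeing the data, removal of haemoglobin-rich barcodes, another random draw, and barcodes with at least or under 3% rod RNA. Values of 2 list members are not reported here.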

Additional observations from a re-analysis of the deposited data

Results flagged for a closer look

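Between rod-gated and cone-gated barcodes, 4 lists lay on opposite sides of 0 in both counting intervals (log2 of the summed level, sponge over GFP library); these differences were not tested, since each treatment has 1 library. The transduction cascade was at 0.25 in rod-gated and -0.19 in cone-gated barcodes. Pde6a, Pde6b, Cnga1 and Slc24a1 in this list are genes of the rod rule, and without them the values were 0.25 and -0.16. Cone markers were at -0.26 and 0.79, and Arr3 and Gnat2 among them are used by the gates. Müller glia markers were at 0.11 and -0.25. Erythrocyte markers were at 0.33 and -2.76, and 5 barcodes held 97.2% of haemoglobin UMIs in the rod-gated barcodes labelled sponge.

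Between rod-gated and rod bipolar-gated barcodes, bipolar markers were at -0.24 and 0.15, with Trpm1 and Prkca used by the gates. Without the genes of the rod rule the bipolar markers were at -0.37 and -0.003, so the value above 0 rested on genes of the rule. Müller glia markers were at 0.11 and -0.11. Of the named genes, Igkc was at 3.47 and -0.89, and Kirrel3 at -1.58 and 0.37. None of these was tested either.

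Reads of eGFP, which no comparison of treatments uses, were present in 2.05% of rod-gated barcodes labelled sponge, above the limit of 0.180% that a count of 0 allows in the library labelled GFP.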

How the results depend on the processing

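The log2 ratio of the rod-gated share, 0.30, was 1.37 with a mitochondrial limit of 10%, 0.67 with the rule applied to barcodes thinned to 1000 UMIs, and 1.08 for barcodes with at least 3% rod RNA, an alternative chosen after seeing the data; it kept its direction in each. The 70 higher and 163 lower genes became 192 and 418 at 2000 UMIs, 40 and 247 with median-of-ratios scaling, 23 and 39 with no other-cell marker, 152 and 578 with the rule applied after thinning, 309 and 351 at 20 counts, 2482 and 1748 with no filter, and 26 and 34 at 3% rod RNA; without thinning 114 were higher. Under 3% rod RNA there were 65 and 145. The cause was not tested, except that looser filters admit more genes with few counts. Medians of lists moved beyond the spread of counting in 29 of 252 recomputations. With the 10% mitochondrial limit, immediate early genes went from 0.23 to -0.43 and antigen and interferon genes from 0.49 to -0.43. Named genes moved in 55 of 311; S100a9 went to 0.14 with the rule applied after thinning. No paired analysis was possible because each treatment has 1 library. Genes under 50 thinned counts over both libraries were not measured at this depth.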
